A study of Mus musculus with 96 samples.

Results

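The regions described here are the stretches of DNA whose methylation the authors listed for the radiation contrast in muscle satellite cells. Every row of that comparison was kept, which gave 9827 regions of the 35198 listed in all bisulfite comparisons of the series. The satellite cells came from C57Bl/6 mice in 4 groups of 6 samples each, 24 in all: control on chow, control on a high fat diet (HFD), irradiated on chow and irradiated on HFD. The radiation dose, the interval after irradiation, and the age and sex of the animals are not stated in the sources at hand. The comparison table gives 1 signed methylation difference for each region, and neither its header nor the labels say which side is irradiated or which diets enter it. Directions are therefore given as coded, as positive or negative, and neither sign is read as a gain or a loss after irradiation. No value of a single sample was used, so no spread between animals can be given for any region.

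Satellite cells are the stem cells of skeletal muscle. They lie quiescent beside the fibre, are marked by the transcription factor Pax7, and divide and fuse to repair muscle after injury. DNA methylation in mammals is placed mainly on the cytosine of CpG dinucleotides by DNA methyltransferases. CpG-dense promoters are mostly unmethylated, while CpGs in gene bodies and between genes are mostly methylated. Reduced representation bisulfite sequencing (RRBS) cuts DNA with MspI at CCGG, which favours CpG-dense promoters, and reads unmethylated cytosine as thymine.

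The sequence under the regions was read where a region fell in a promoter window of 300 bases, from 250 before to 50 after a gene start (RefSeq, GRCm38.p6). Of 32817 such windows, 2175 (6.63%) were overlapped by a listed region. The MspI site CCGG, a palindrome read the same on both strands, lay in 99.0% of the overlapped windows and in 52.8% of all windows. The overlapped windows held a median of 28 CpGs against 7 in all windows, and their median GC content was 67.3% against 52.7%. Among the 2022 regions wholly inside a window, 2017 (99.8%) began on a base of a CpG, 1011 of them on the C of the plus strand and 1006 on that of the minus strand. These regions held a median of 4 CpGs, with at most 45. The windows shown carry regions that the results turn on: a positive and a negative region among the 10 largest each way (Clic5 and Ankrd6), the promoters of a satellite cell receptor and of a cell cycle inhibitor (Notch3 and Cdkn1b), and the largest region of the TGF-beta and BMP list (Inhbb). Each is printed 5′ to 3′ on the gene's strand, with 1 listed region in capitals.
Clic5, plus strand, chr17:44188322-44188621: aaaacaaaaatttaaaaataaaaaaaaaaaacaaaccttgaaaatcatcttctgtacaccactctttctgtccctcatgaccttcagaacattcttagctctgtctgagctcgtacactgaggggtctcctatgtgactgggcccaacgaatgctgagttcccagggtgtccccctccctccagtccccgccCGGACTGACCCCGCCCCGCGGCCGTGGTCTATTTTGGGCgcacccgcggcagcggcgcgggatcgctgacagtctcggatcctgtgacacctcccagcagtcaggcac
Ankrd6, minus strand, chr4:32950777-32951076: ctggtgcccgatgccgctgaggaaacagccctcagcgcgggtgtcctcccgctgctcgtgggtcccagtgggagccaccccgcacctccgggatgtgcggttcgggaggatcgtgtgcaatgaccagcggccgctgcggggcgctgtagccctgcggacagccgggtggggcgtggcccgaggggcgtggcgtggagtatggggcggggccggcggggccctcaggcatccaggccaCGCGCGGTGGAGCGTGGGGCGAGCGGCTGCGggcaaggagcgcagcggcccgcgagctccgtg
Notch3, minus strand, chr17:32166841-32167140: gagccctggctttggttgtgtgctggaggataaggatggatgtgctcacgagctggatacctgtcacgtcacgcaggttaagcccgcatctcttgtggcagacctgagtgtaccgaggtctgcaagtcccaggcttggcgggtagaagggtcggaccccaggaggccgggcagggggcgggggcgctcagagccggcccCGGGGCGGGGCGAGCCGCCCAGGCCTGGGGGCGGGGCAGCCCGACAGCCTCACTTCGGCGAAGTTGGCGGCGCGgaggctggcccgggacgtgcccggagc
Cdkn1b, plus strand, chr6:134920151-134920450: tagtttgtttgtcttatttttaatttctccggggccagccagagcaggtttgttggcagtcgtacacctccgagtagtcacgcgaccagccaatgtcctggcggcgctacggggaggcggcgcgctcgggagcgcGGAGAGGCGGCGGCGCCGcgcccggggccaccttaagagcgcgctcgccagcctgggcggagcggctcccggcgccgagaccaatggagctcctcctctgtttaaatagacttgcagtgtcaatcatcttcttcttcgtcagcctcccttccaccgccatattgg
Inhbb, minus strand, chr1:119422199-119422498: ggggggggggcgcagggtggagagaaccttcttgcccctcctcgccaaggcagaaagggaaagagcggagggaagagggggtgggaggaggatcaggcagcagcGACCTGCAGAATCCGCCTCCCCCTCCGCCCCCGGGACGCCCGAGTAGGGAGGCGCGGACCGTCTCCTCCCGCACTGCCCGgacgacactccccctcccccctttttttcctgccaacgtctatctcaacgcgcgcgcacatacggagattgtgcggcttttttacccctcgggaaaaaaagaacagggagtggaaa
The Clic5 region held 6 of its window's 16 CpGs, the Ankrd6 region 7 of 36, the Notch3 region 11 of 25, the Cdkn1b region 5 of 30 and the Inhbb region 11 of 23. Other listed regions in these windows are in lower case: 1 in the Ankrd6 window, a base of 34.3 points at 32950913, and 6 in the Cdkn1b window, which held 3 regions of 10 points or more, all negative, and 4 positive ones of under 1 point.

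All differences and p-values below are those of the authors' deposited table, with differences in percentage points of methylation. Gene names are those the table gives for the nearest gene start, in mm10. The regions were short, with a median width of 29 bases and a widest of 432, and 2108 of them were a single base. They were assigned to 4705 genes on 20 chromosomes. Most lay at gene starts: 8496 (86.5%) were within 1 kb of one, here called core promoters, and the median distance was 253 bases. A further 361 lay 1 to 2 kb and 101 lay 2 to 3 kb from a start. Outside promoters, 462 regions were distal intergenic, 259 intronic, 109 exonic and 22 in 3′ UTRs. Of all regions, 5101 (51.9%) differed by 10 percentage points or more, and 3457 (35.2%) by under 1 point. The median p reached from 1.95e-70, at the start of Slc19a2, to 0.0141 at Cyc1. It is not stated which spread that p measures, so it is not read here as a test between animals.

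Directions were nearly balanced over the whole table. The difference was positive in 4724 regions (48.1%) and negative in 5103. It was 0, within 1e-06 points, in 21 of these regions, of which 20 were coded negative, and without them the positive share was 48.2%. Among regions of 10 points or more, 46.0% were positive. The positive share was 49.0% in core promoters, 45.7% in distal intergenic DNA, 37.1% in introns and 31.2% in exons. By chromosome it ranged from 43.6% on chromosome 18 to 51.8% on chromosome 14.

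The sizes of the differences were not spread evenly. The median absolute difference was 13.8 points, but few regions lay near it. Differences of under 1 point made up 3457 regions, those of 1 to 10 points 1269 (12.9%), and those of 10 to 20 points only 484 (4.93%). From 20 to 30 points there were 1230 regions (12.5%). From 30 to 36 points there were 3307 (33.7%), with a median of 33.7 points, and only 80 (0.814%) were larger. The upper edge was sharp: 1227 regions (12.5%) lay between 34 and 35 points and 13 between 35 and 36. These size classes were drawn after the values had been seen. The group between 30 and 36 points held 35.5% of core promoter regions, 21.9% of intergenic, 14.7% of intronic and 10.1% of exonic regions. In the satellite cell diet comparison, 31.2% of regions lay between 30 and 36 points, with 50.7% positive. In the radiation table of the stromal vascular fraction (SVF), the mixed non-fat cells of adipose tissue, 3.26% lay there and 18.8% above 36 points, with a median of 38.1 points and 98.4% positive in the latter.

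**Figure D1:**
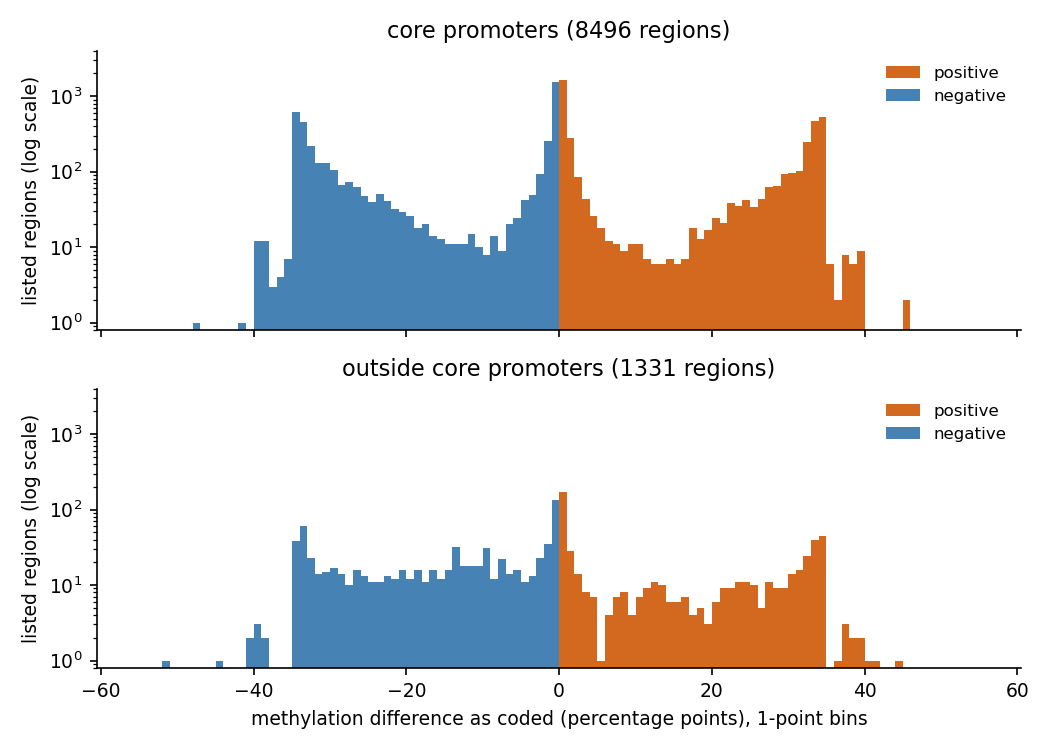
Number of listed regions (vertical axis, logarithmic) by signed methylation difference in percentage points (horizontal axis, 1-point bins), for regions in core promoters and outside them, with positive and negative differences in separate colours. In core promoters the regions pile up near 0 and between 30 and 36 points in both directions (1455 positive and 1564 negative in the latter), while outside them negative differences of 10 to 30 points (302) outnumber positive ones (158).

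Neighbouring regions alternated in direction. There were 2775 pairs of consecutive regions no more than 100 bases apart, and in all 2775 the coded sign differed between the members. In 5 of these pairs a member's difference was 0 within 1e-06 points, so that its sign is only that of the coded value. In 2372 pairs 1 member was past 10 points and the other was not, and in 210 both were. In 339 pairs the regions, of 1 base or more each, ended and began at adjacent bases. Of these 69 met in a promoter window, and 65 of the 69 met between the C and the G of a single CpG. In 335 of the 339 pairs only 1 region was past 10 points, and in 1 both were. The median absolute difference was 33.5 points in the larger region of these pairs and 0.229 points in the smaller. How the authors delimited regions is not stated, and whether the alternation comes from that step was not tested.

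The genes with the most regions give examples of this alternation at the scale of a promoter. They were picked by their number of regions, which rises with each change of sign, so they are no separate evidence for it. Ctnnb1, which encodes beta-catenin, the effector of canonical Wnt signalling, had 19 regions between 81 and 552 bases past its start (chr9:120933643-120934130). In 10 of them the difference was between -34.7 and -27.8 points, and in the other 9 it was positive and between 0.0451 and 0.459 points. The sign changed at all 18 steps from one region to the next. Ctcf, which encodes the insulator protein that organises chromatin loops, had 16 regions within 359 bases of its start (chr8:105636455-105636897). Its differences were between -34.7 and -34.0 points in 8 regions and between 0.0431 and 0.402 points in the other 8, with a change of sign at all 15 steps. Ing1, a reader of trimethylated histone H3, also had 16 regions, 6 of them past 10 points and all 6 negative. Zfp609 had 16, with 8 between -30.7 and -26.5 points. Bbx had 15, with 7 negative and 1 positive past 10 points. In all, 2175 genes had more than 1 region and 1735 of them had both signs. Among the 1065 genes with more than 1 region of at least 10 points, 552 had both signs.

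**Figure D2:**
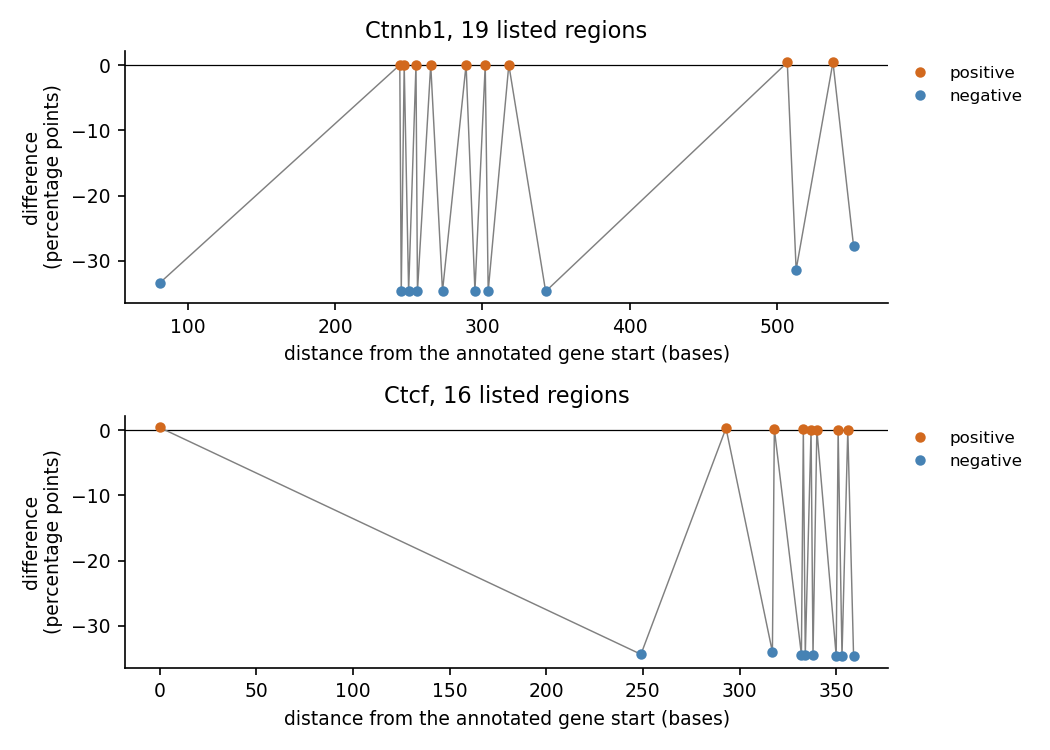
Methylation difference in percentage points (vertical axis) at each listed region of Ctnnb1 and Ctcf, by distance from the annotated gene start in bases (horizontal axis), with a line joining consecutive regions. The difference alternates between just above 0 and as low as -34.7 from one region to the next at both promoters.

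Among the 10 largest positive differences, the first were at H2-K1 and Clic5. H2-K1, a classical MHC class I heavy chain that presents peptides to T cells, had a region 611 bases past its start (chr17:33999669-33999722) with a difference of 45.2 points. Clic5, a chloride intracellular channel protein linked to the actin cytoskeleton, differed by 45.1 points at the region shown above, 58 bases before its start. Camta1, a calmodulin-binding transcription activator, differed by 44.5 points at a single intronic base (chr4:151138024). An intronic region near 1700030C10Rik differed by 41.8 points. An intergenic region nearest to Sp8, a zinc finger factor of limb and neural development, differed by 41.0 points. Dzip1l, a protein of the ciliary base, had 39.8 points. Siah2, a ubiquitin ligase, Sgk3, a kinase acting downstream of phosphoinositide 3-kinase, and Dleu2, a long noncoding RNA, had 39.6 points each. Sgk3 had 2 of the 10 regions, both at chr1:9798362-9798370, so they are 1 locus. Of the 10, 7 were in core promoters.

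Among the 10 largest negative differences, the first was also the largest of the table. It was a single base in a 3′ UTR (chr14:30523919), nearest to the start of Tkt, the transketolase of the pentose phosphate pathway, at -51.6 points. Plekhn1 followed at -47.1 points, 352 bases before its start (chr4:156223790-156223860). Hic1, a transcriptional repressor often silenced by methylation in human tumours, had -44.9 points at 1 base 2484 bases past its start (chr11:75165668). Fam178a had -41.1 points in its core promoter, and an intergenic region near 1700007F19Rik had -40.9. Cdh4, which encodes R-cadherin, had -40.6 points at an intronic base. Kansl1, a subunit of a histone acetyltransferase complex, and Crtap, needed for prolyl hydroxylation of collagen, had -39.6 points each. Cfap97 and Ankrd6, an ankyrin repeat protein of Wnt signalling, had -39.5 each. By annotation class, the largest positive and negative regions were at Slc29a4 (37.4) and Kcnk12 (-34.3) in exons, and at Smug1 (37.5) and Spry1 (-34.5) 1 to 2 kb from a start. At 2 to 3 kb they were at Irf2bpl (34.6) and Hic1. The largest positive region of a 3′ UTR was at Eef1a2, a translation elongation factor of muscle and neurons, at 32.9 points.

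Outside core promoters the table leaned to negative differences. Of 1331 such regions, assigned to 925 genes, 772 were negative and 559 positive, which left 42.0% positive against 49.0% in core promoters. The median distance of these regions to a start was 7747 bases. At 10 points or more 462 were negative and 306 positive, at 20 points 293 and 238, and at 30 points 160 and 148. The lean was strongest between 1 and 20 points. There 31.4% of 258 regions of 1 to 10 points and 28.7% of 237 of 10 to 20 points were positive. The share was 40.4% of 223 regions at 20 to 30 points, 47.6% of 288 at 30 to 36 and 56.4% of 305 under 1 point. Between 10 and 30 points 302 of 460 regions were negative, leaving 34.3% positive, and this size class held 34.6% of the regions outside core promoters against 14.8% of those inside. In exons and introns together, 119 of the 174 regions of this size were negative. In the satellite cell diet table, which shares samples, regions of this size outside core promoters were 48.3% positive, and 198 of 383 were negative. A lean at 10 to 20 points was not particular to the radiation regions outside core promoters. At that size 39.7% of 247 radiation regions in core promoters and 41.3% of 184 diet regions outside them were positive. In the SVF radiation table, whose sides are not named either, the shares were 46.8% outside core promoters and 32.5% in them. At 1 to 10 points outside core promoters, 51.2% of diet and 38.8% of SVF regions were positive. No test of these shares was made, since regions of the same samples are not replicates.

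**Figure D3:**
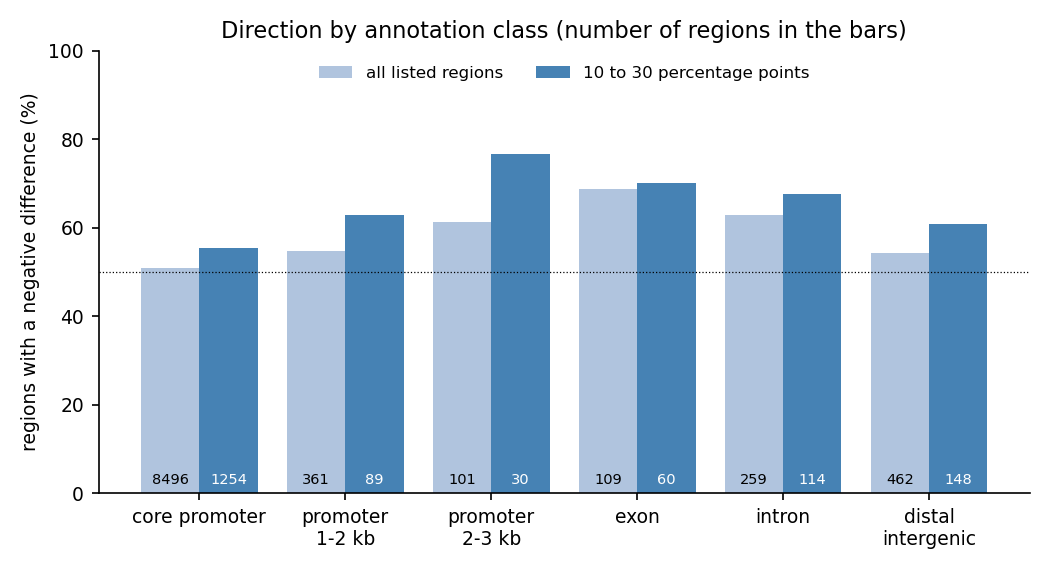
Share of regions with a negative difference in percent (vertical axis, from 0) by annotation class, for all listed regions and for those of 10 to 30 percentage points, with the number of regions printed in each bar and a dotted line at 50. The share at 10 to 30 points is above that of all regions in each of the 6 classes drawn, and is 76.7% of 30 regions 2 to 3 kb from a start, 70.0% of 60 exonic regions and 55.5% of 1254 core promoter regions.

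Developmental transcription factors outside the Hox clusters had many of their regions away from core promoters. Of 113 genes on that list 30 had a region, and 20 of them had 26 regions outside core promoters, 17 negative and 9 positive. Of those 26, 12 were negative and 8 positive at 10 points or more, beside 39.8% positive among all regions of that size outside core promoters. Prrx1, a homeobox factor of limb mesenchyme, had -33.3 points in an intron, and Meis1, a homeobox cofactor of Hox proteins, had -33.2 points at an intergenic region and 31.1 points 1652 bases before its start. Tbx18, a T-box factor of mesenchymal progenitors, had -27.3 points and En1, a homeobox factor, -22.7. Lhx2, a LIM homeobox factor, had 3 regions, at -16.3, -13.8 and -13.5 points. Gata4, a cardiac and endodermal factor, had -9.64 points in its 5′ UTR and -4.21 in an exon. Msx1, a homeobox repressor of muscle differentiation, had -10.1 points, and Sox9, the chondrogenic factor, -8.24. On the positive side, Prrx2 had 34.1 points, Foxe1 34.1 and 28.7, Pax7 34.0, Tbx5 25.1, Barhl2 23.0 and Foxd3 11.7. Over all its 50 regions the list was 38.0% positive, beside 48.1% for the whole table and 42.0% for the table outside core promoters. Among its regions of 10 points or more 43.8% were positive, beside 46.0% for the whole table. Of the 50 regions 64.0% reached 10 points, beside 51.9%.

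Genes of satellite cells themselves were then taken by role. Of the markers of satellite cells, fibroblasts, endothelium, leukocytes and adipocytes set out for checking the cell type, only Pax7 and Dcn had a region. Methylation differences do not show which cells were present, so the labelled cell type was not checked by them. Pax7, the defining factor of the lineage, had 2 positive regions, at 34.0 points in an intron (chr4:139821478-139821650) and at 34.0 points in the promoter (chr4:139832626-139832667). Both lay in the size class of 30 to 36 points. Dcn, the fibroblast proteoglycan decorin, had -9.84 points at an intergenic region. Over the whole table, 3286 of the 4705 genes with a region had one of 10 points or more, and 552 of the 3286 had both signs at that size. These are the background for list members that reached 10 points and for mixed members, here and below. For direction, the background is the 46.0% of regions of that size that were positive. The genes that RRBS could read were not counted, so the number of list members with any region has no background here. Of 26 satellite cell identity genes 10 had a region and 7 had one of 10 points or more, 3 positive only, 3 negative only and 1 both. Itgb1, the beta1 integrin that holds the cell to its niche, and Notch3, a receptor associated with quiescence, had 34.4 points each. Spry1, an inhibitor of growth factor signalling needed for return to quiescence, had -34.5 points at a base 1142 bases past its start. Sdc3, a heparan sulphate proteoglycan of the satellite cell surface, had 15.8 points in an intron. Among myogenic differentiation and fusion genes, 14 of 30 had a region, and 9 reached 10 points, 5 positive only, 2 negative only and 2 both. Tead1 and Tead4, partners of the Hippo effectors, had 34.5 and 34.1 points, and Six4, a homeobox activator of myogenic genes, had 34.2. Id3, an inhibitor of myogenic bHLH factors, had -33.7 points downstream of the gene and 25.5 points at an intergenic region upstream. Of 40 sarcomere genes 2 had a region (Tpm1 and Tpm2).

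At 10 points or more, insulin and glucose genes leaned to positive and Wnt genes to negative differences, as coded. Of 56 insulin signalling and glucose genes, 22 had a region and 12 reached 10 points. Of those 12, 8 were positive only, 0 negative only and 4 mixed. Irs1, the adaptor below the insulin receptor, had 34.6 points at one intronic region (chr1:82283445-82283455) and -29.1 at another (chr1:82283322-82283335). Igf2bp2, an RNA-binding regulator of growth factor transcripts, had 34.5 points at its start, and Foxo1, a transcription factor restrained by insulin signalling, 30.1. Akt1, the kinase at the centre of the pathway, had -34.4 points. Over all 58 regions of the list 29 were positive and 29 negative, so the list as a whole did not lean. Over its 28 regions of 10 points or more 21 were positive and 7 negative, beside 46.0% positive in the table. Of 65 Wnt genes, 25 had a region and 19 reached 10 points, 5 positive only, 12 negative only and 2 mixed. Regions of the Wnt list were 37.7% positive, beside 48.1% in the table, and 22.9% at 10 points or more, beside 46.0%. Of its 27 negative regions of 10 points or more, 10 were at Ctnnb1. Outside core promoters, where Ctnnb1 had none, 6 were negative and 2 positive at 10 points, beside 39.8% positive among all such regions. Wnt1, a secreted ligand, had -30.1 points, and Wnt3, another, -28.7. Bcl9l, a coactivator of beta-catenin, had -26.9 points, Fzd1, a Wnt receptor, -18.4, and Axin2, a feedback inhibitor, -15.7. Sfrp1, a secreted inhibitor, had 21.7 points at an intronic base. These counts describe the table, and no test of a list was made.

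Notch, transforming growth factor and matrix genes differed in direction at 10 points or more. Of regions of that size, 6 were positive and 12 negative on the Notch list, and 12 and 15 on the transforming growth factor list. On the matrix list 8 were positive and 2 negative, beside 46.0% positive in the table. Of 30 Notch genes 11 had a region, with 3 positive only, 5 negative only and 1 mixed at 10 points. Maml3, a coactivator of Notch, had 34.5 points, Numb, an inhibitor of the receptor, 34.2, and Hey2, a Notch target that represses transcription, -34.4. Of 43 genes of the TGF-beta and BMP pathway 22 had a region, with 5 positive only, 7 negative only and 4 mixed. Inhbb, the beta B chain of inhibins and activins, had regions of 38.7 points at the window shown above, 37.7 points 455 bases past its start and 34.5 points 990 bases past it. Smurf2, a ubiquitin ligase that removes receptors, had -34.6 points. Ltbp3, which binds latent TGF-beta in the matrix, had -33.9, -29.3 and 10.7 points at 3 regions 1 to 2 kb past its start. Of 71 collagen and matrix genes 8 had a region, all 8 at 10 points or more, 6 positive only and 2 negative only. They included Dag1, the dystroglycan that links the fibre to its matrix, at 34.3 points, Fbn1, fibrillin of the microfibrils, at 34.0, and Col5a1, a fibrillar collagen chain, at 33.2.

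**Figure D4:**
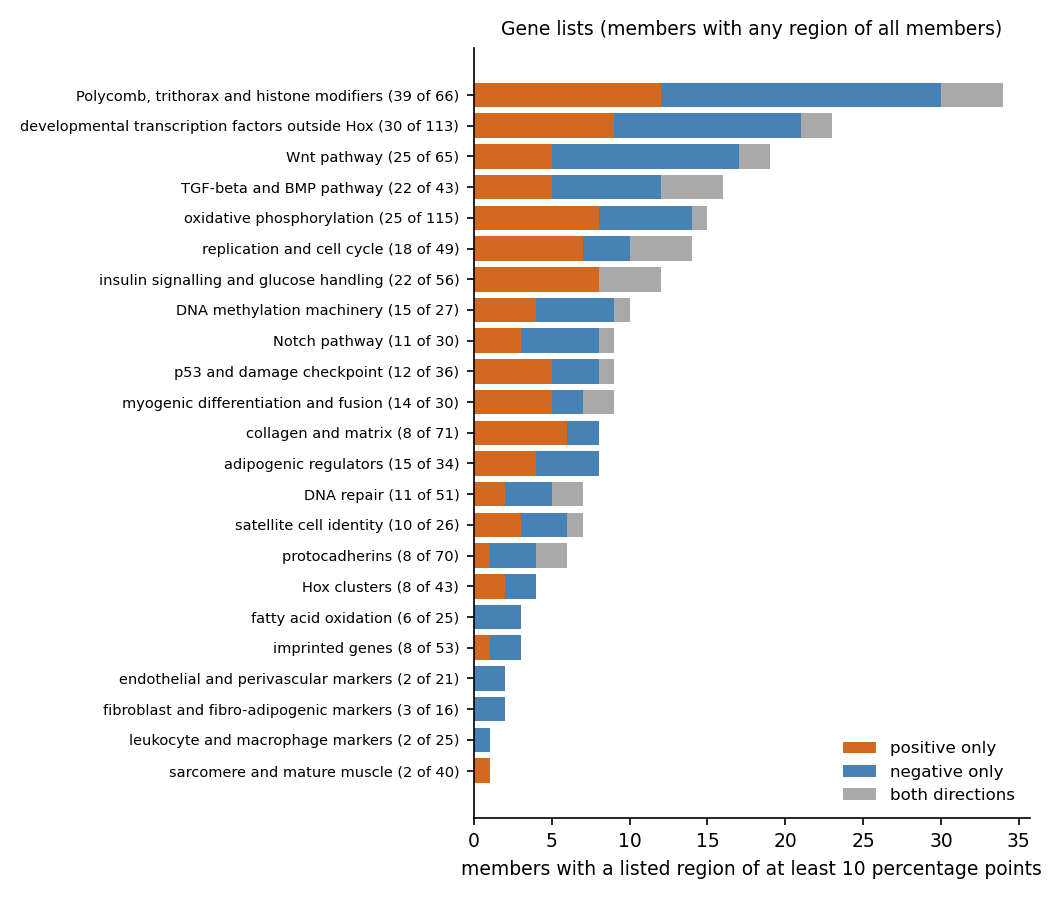
Number of members of each gene list with a listed region of at least 10 percentage points (horizontal axis), split into members with positive differences only, negative only or both, with the members that had any region out of all members beside each list name. Insulin signalling had 8, 0 and 4 members in the 3 kinds, and the Wnt pathway 5, 12 and 2.

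Chromatin regulators gave both directions. Of 66 Polycomb, trithorax and histone modifier genes, 39 (59.1%) had a region and 34 reached 10 points, 12 positive only, 18 negative only and 4 mixed. Of the list's 109 regions 45.9% reached 10 points, beside 51.9% in the table. Dot1l, the methyltransferase of histone H3 lysine 79, had -34.7 points, Hdac4, a deacetylase that restrains muscle gene programmes, -34.5, and Ep300, a histone acetyltransferase, 34.4. Outside core promoters the list had 15 regions, 11 negative and 4 positive. Of these 7 reached 10 points and all 7 were negative, beside 39.8% positive among all regions of that size there. Among them were Cbx8, a chromodomain protein of Polycomb, at -30.8 points, and Kmt2a, a trithorax methyltransferase, at -25.9. Smarca2, an ATPase of the SWI/SNF remodeller, had 2 of the 7, at -25.7 and -24.7 points. Both lay at chr19:26606855-26606879, with a region of 0.896 points between them, so they are 1 locus. Of 27 genes of the DNA methylation machinery 15 had a region, with 4 positive only, 5 negative only and 1 mixed at 10 points. Dnmt3a, the de novo methyltransferase, had -35.1 points 970 bases past its start. RRBS samples CpG-dense promoters, so how often a list appears also depends on which promoters could be read, and the regions that were tested and not listed were not analysed here.

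Genes of the response to radiation damage split between directions. Of 36 p53 and checkpoint genes 12 had a region, and 9 reached 10 points, 5 positive only, 3 negative only and 1 mixed. The 4 largest differences of the list were all negative. An intergenic region nearest to Zmat3, a p53 target, had -39.4 points. Phlda3, a p53 target that inhibits Akt, had -34.5 points, and Mdm2, the ubiquitin ligase that degrades p53, and Sesn1, a stress-induced p53 target, had -34.1 points each. Gadd45g, a growth arrest and stress response gene, had 33.4 points 2758 bases past its start. Of 51 DNA repair genes 11 had a region, with 2 positive only, 3 negative only and 2 mixed. Lig1, the replicative DNA ligase, had -34.6 points and Blm, a helicase, -34.4, while Rnf168, which ubiquitylates histones at breaks, had 34.4. Of 49 replication and cell cycle genes 18 had a region, and 14 reached 10 points, 7 positive only, 3 negative only and 4 mixed. Cdkn1b, the inhibitor p27 that keeps cells out of cycle, had 3 negative regions between 134920272 and 134920303 on chromosome 6, at -34.6, -34.5 and -34.5 points, and a region of 33.1 points 1681 bases past its start. Ccnd1, the cyclin of G1, had -34.5 points 1667 bases before its start, and Ccne2, a cyclin of entry into S phase, 35.8 points.

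Genes of energy metabolism and of other cell types were counted in the same way. Of 115 oxidative phosphorylation genes 25 had a region, and 15 reached 10 points, 8 positive only, 6 negative only and 1 mixed. Cox6c, a subunit of cytochrome oxidase, had 34.5 points, and Ndufab1, an accessory subunit of complex I, -34.5. Of 25 fatty acid oxidation genes 6 had a region, and the 3 that reached 10 points were all negative. They were Ucp2, a mitochondrial carrier, at -27.2 points, Etfb, an electron carrier, at -20.7, and Cpt1b, the muscle form of the enzyme that admits long-chain fatty acids to mitochondria, at -12.2. Of 34 adipogenic regulators 15 had a region, 4 positive only and 4 negative only at 10 points. Of 53 imprinted genes 8 had a region and 3 reached 10 points. Endothelial and perivascular genes had a region in 2 of 21, fibroblast genes in 3 of 16, leukocyte genes in 2 of 25 and adipocyte markers in 0 of 9. The members of these lists with 10 points or more were all negative, among them Mcam, a marker of perivascular cells, at -33.1 points, Notch4, an endothelial receptor, at -16.5, and Csf1r, the receptor of macrophage growth factor, at -22.3.

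The satellite cell diet comparison shares samples with the radiation comparison, so values are given side by side only. Both tables held 5003 identical positions, 50.9% of the radiation regions. Of the 1592 positive radiation regions of 30 to 36 points, 1010 (63.4%) were listed for diet. There the median difference was 33.8 points for radiation and 33.7 for diet, and the diet differences ran from 17.4 to 36.4. Of the 1715 negative regions of that size, 1100 (64.1%) were listed for diet. There the medians were -33.7 points for radiation and 0.188 for diet, and the diet differences ran from 0.00719 to 2.95. The positions not listed for diet have no diet value here, among them 2 of the 10 largest positive and 7 of the 10 largest negative regions. At H2-K1 the values were 45.2 and 45.1 points, at Clic5 45.1 and 45.2, at Dzip1l 39.8 and 39.7, and at Camta1 44.5 and 17.3. At Kansl1 they were -39.6 and 0.0654 points, and at Crtap -39.6 and 0.0649. Of the 460 regions of 10 to 30 points outside core promoters, 73 (15.9%) were listed for diet. The interaction table held 1057 regions, 232 of them at a radiation position. Where the radiation difference was positive and 30 to 36 points (56 positions), the interaction value had a median of -57.0 points, from -63.0 to -48.7. Where it was negative and of that size (61 positions), the median interaction value was 0.0760, from 0.0128 to 60.2. At Dleu2 the radiation, diet and interaction values were 39.6, 39.6 and -57.2 points.

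In the SVF, which was profiled in separate samples, 1538 of the satellite cell regions (15.7%) overlapped 1332 of the 5493 SVF radiation regions (24.2%) by at least 1 base. The same coded sign was found in 870 of 1685 overlapping pairs (51.6%), and in 136 of the 268 pairs (50.7%) in which both regions were past 10 points. In those 268 pairs 136 satellite cell and 240 SVF regions were positive. Neither table names its sides, so a positive value need not point the same way in both. Signs here and for the genes below are therefore not read as shared or opposed effects of irradiation. By gene, 1700 were shared, 36.1% of the satellite cell and 51.3% of the SVF genes. Of core promoter regions 16.6% overlapped an SVF region, and of those outside 9.54%. Among regions of 10 to 30 points outside core promoters 13 of 460 (2.83%) did. In the authors' deposited tables Fam178a had -41.1 points in satellite cells and 36.8 in SVF, and Crtap -39.6 and 37.2. Cdk5r1, an activator of the kinase Cdk5, had -35.5 points in satellite cells and 36.7 in SVF. Dzip1l had 39.8 points in satellite cells and -2.80 in SVF, and Ankrd6 had -39.5 and -0.237.

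Satellite cell RNA from the same design was tested by the authors with edgeR for irradiated against control over both diets, where 827 of 12371 genes (6.68%) had an adjusted p under 0.05. The number of tested genes was worked out from the authors' p and adjusted p. Of the 827 genes, 222 (26.8%) also had a methylation region, which was 4.72% of the genes with regions. Genes with regions were counted whether or not their RNA was tested, so the 4.72% and the 6.68% are not comparable. For core promoters, 191 of 4049 genes (4.72%), counted in the same way, had such RNA. In the 134 of these genes whose strongest core promoter region reached 10 points, RNA was higher in irradiated cells for 39 with a positive and 38 with a negative region, and lower for 33 and 24. Fold changes below are log2 means of the effects on the 2 diets, the number in the authors' deposited table divided by 2. Egln3, an oxygen-sensing prolyl hydroxylase, had a promoter region of -38.7 points and an RNA change of 0.51 (adjusted p = 0.0120 in the authors' edgeR table). An intergenic base nearest to Egln3 had 15.8 points. Cilp2, a cartilage matrix protein, had 35.1 points and an RNA change of 1.92 (edgeR adjusted p = 0.00447). Zfp395 (37.2 points) and Tanc2 (35.8 points) had RNA changes of 0.51 and 0.38. Arid1b, a subunit of the SWI/SNF remodeller, had 3 negative promoter regions, each of -34.7 points, and an RNA change of 0.23. All 3 lay at chr17:4995037-4995076, so they are 1 locus. An intergenic region nearest to Arid1b had 32.0 points. RNA and methylation were measured in separate samples, and whether these came from the same animals is not stated.

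Outside core promoters, 29 regions of 10 points or more at 29 genes had RNA past that threshold. RNA was higher in irradiated cells for 10 with a negative and 7 with a positive region, and lower for 7 and 5. Palmd, which encodes palmdelphin, had an intergenic region of 14.6 points and an RNA change of 1.72 (edgeR adjusted p = 7.27e-06). Axin2 had -15.7 points and an RNA change of 1.05 (edgeR adjusted p = 0.0323), and Sfrp1 21.7 points and 0.85 (edgeR adjusted p = 0.0142). Cx3cl1, the chemokine fractalkine, had -26.7 points and an RNA change of 0.84, and Msx1 -10.1 points and 0.79. Foxo1 had 30.1 points and an RNA change of 0.41. Cdkn1b, with 33.1 points past its start beside -34.6, -34.5 and -34.5 points in its core promoter, had an RNA change of -0.30, Gadd45g, with 33.4 points, one of -0.49, and Bcl6, a transcriptional repressor, with -33.7 points in an intron, one of -0.44. In bulk RNA, fewer cells of a type and less RNA per cell cannot be told apart.

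The MBD comparison, made on DNA pulled down by a methyl-CpG binding domain, overlapped these regions rarely. Of 3040 distinct intervals that the authors listed, 241 (7.93%) were overlapped by 354 satellite cell radiation regions. The overlap was 22 of 322 promoters, 4 of 84 CpG islands, 4 of 190 shores and 211 of 2444 exons. At Rabgef1, the MBD promoter value in the authors' deposited table was -2.01 on the log2 scale beside a bisulfite difference of -34.6 points, and at Hif1a it was 1.86 beside -34.5. At Tlk1 it was 1.85 beside 34.5, and at Tmed2 it was -0.93 beside 37.5. The sides of the MBD contrast are not named either, so no direction was compared.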

How the data were processed

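RRBS of 24 satellite cell samples was compared by the submitters, and only comparison tables were used, with 0 columns of single samples. Per the submitters' processing notes the tools were Bismark 0.14.4 on build mm10 with Bowtie2 2.2.6, as well as cutadapt 1.8.3 and Trim Galore 0.4.0, with CASAVA 1.8.2. The deposited table holds, for each region, a p-value (a median) and a signed difference of methylation fractions, multiplied here by 100. The 2 further columns with levels of unnamed groups were not used, because neither could be matched to a labelled group. Coverage, smoothing and segmentation are not stated in the sources at hand, so depth is unknown and no interval on a difference was computed. Shares under alternatives were set against 95% Wilson binomial intervals over regions, which do not measure the spread between animals. The authors' RNA tables give log2 fold changes and adjusted p-values from edgeR, and the authors' MBD log2 fold changes were treated as a score because notes share their columns. MBD and RNA were used only where they met a region.

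All rows were kept. Overlap meant at least 1 shared base; counting code was tested on simulated regions. The named genes were the 10 largest differences each way, the largest in each annotation class, up to 4 regions per list, the 5 genes with most regions, and the 5 largest with RNA or SVF overlap. Other named regions, among them those outside core promoters, were picked after their values were seen. The members, lists and size classes were chosen with earlier results of these data known. Lists were matched by symbol and RefSeq synonyms. Cytosolic ribosomal protein, zinc finger, protocadherin, Hox, microRNA and histone lists were also counted: regions were found for 31 ribosomal, 101 Zfp, 8 protocadherin, 8 Hox, 59 microRNA and 4 histone genes. Alternatives were fixed minimum differences, p thresholds, merging and stricter overlaps. Python 3 with pandas and matplotlib was used.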

Additional observations from a re-analysis of the deposited data

How the results depend on the processing

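No paired analysis was possible because only the authors' comparison statistics were used, with no value of a single sample, so leaving out a replicate was not possible either. The number of regions fell from 9827 to 5101 at a minimum of 10 percentage points, to 4705 with 1 region per gene, to 4893 with regions within 1 kb merged, and to 6520 without regions of 30 to 36 points, an alternative chosen after seeing the data. It was 7913 at a median p under 0.000141. The positive share of 48.1% moved to 46.0% at 10 points, 49.2% at the lower p, 46.9% with 1 region per gene and 47.0% after merging, and all of these stayed under 50%. Outside core promoters it was 42.0%, and 34.3% at 10 to 30 points, an alternative chosen after seeing the data, as were 5 others. At 10 points the share moved from 49.0% to 47.1% in core promoters and from 38.6% to 24.1% at 2 to 3 kb. Overlap with SVF regions was 14.4% when 50% of the shorter region had to be shared, and 36.1% when counted by gene. Genes with RNA rose from 222 to 524 at an adjusted p under 0.1, which 13.7% of tested genes met. Of 132 named regions, 122 were past 10 points.

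The differences are the authors' values of unknown depth, and how they were computed is not stated. A region with a difference of about 34 points can end at one base of a CpG and one near 0 begin at the other, and such regions are counted separately.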
